A study of Mus musculus with 44 samples.

Results

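The keratin and keratin-associated genes of the mouse were examined for CTCF binding in embryonic stem cells (ESCs) with and without SETDB1. The set holds the 110 protein-coding genes, of 21951 in GENCODE vM21, whose symbol is *Krt* or *Krtap* followed by a number, 53 *Krt* and 57 *Krtap* genes. A CTCF peak was counted when its summit, the position of highest read coverage, lay in such a gene or within 20 kb of it. By this rule 75 of the 44241 peaks of the WT list and 90 of the 59698 peaks of the *Setdb1* KO list belong to the keratin genes. Both libraries came from TT2 ESCs, an F1 line of C57BL/6 and CBA mice, grown in serum with LIF. One library was of the WT genotype, clone 33#6. The other was of the *Setdb1* KO genotype, a conditional deletion induced by 800 nM 4-hydroxytamoxifen (4-OHT) over 4 days, with cells collected at day 6. The sources do not state that the WT cells received 4-OHT, so deletion and drug cannot be told apart. SETDB1 deposits trimethylation on lysine 9 of histone H3 (H3K9me3), and the study asked where CTCF binding changes when it is lost. The peak lists do not show the *Setdb1* deletion itself or the identity of the cells. The labels list a second CTCF library, replicate 2, for each condition, which was not analysed here. With 1 library per condition analysed there is no replicate error and no test between conditions, and the intervals below cover counting error only.

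Keratins are the intermediate filament proteins of epithelia, and each filament is built from pairs of a type I and a type II chain. In the mouse the type I genes lie together on chromosome 11 and the type II genes on chromosome 15, where *Krt18* is the only type I gene. Keratin-associated proteins crosslink the keratins of the hair shaft, and their short genes lie between the type I genes and in separate clusters. *Krt8* and *Krt18* are the first keratins of the embryo and mark simple epithelia and trophectoderm, whereas most other members are restricted to skin, hair and stratified epithelia. CTCF is a zinc finger protein that marks boundaries and loop anchors, and loops tend to form between sites whose motifs point towards each other. Transcription was not measured in these lists, so which keratins are silent in ESCs is background.

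Near-identical CTCF sites recurred among the members, and their sequences are shown first because both copies of each pair had a peak in both lists. They come from the RefSeq GRCm38 genome, read 5′ to 3′, and capitals mark the 14-base core of the CTCF motif. Motifs were scored with a matrix built from peaks outside the keratin genes and called above 12.5 bits. These pairs were picked after the values had been seen and are described without a test.
*Krt81* exon 9, chr15:101459466-101459499, plus strand: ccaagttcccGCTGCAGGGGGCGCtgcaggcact
*Krt86* exon 9, chr15:101479450-101479483, minus strand: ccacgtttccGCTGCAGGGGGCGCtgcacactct
*Krtap5-1* far site, chr7:142278383-142278416, minus strand: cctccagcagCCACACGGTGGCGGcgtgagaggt
*Krtap5-1* near site, chr7:142294019-142294052, minus strand: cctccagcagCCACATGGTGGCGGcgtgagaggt

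The hair keratin genes *Krt81* and *Krt86* lie on opposite strands and both carry the core GCTGCAGGGGGCGC in coding exon 9. The pileup, the number of fragments stacked at the summit, was 43 in WT and 60 in *Setdb1* KO at *Krt81*, and 34 and 32 at *Krt86*. In the *Krtap5* cluster of chromosome 7, a shared site 17.9 kb from *Krtap5-1* and another 2.29 kb from it were identical at 33 of 34 bases. They differ in the core by C6T, with positions counted from 1 at its 5′ end and the base of the far site first. Their pileups were 51 in WT and 57 in *Setdb1* KO at the far site, and 67 and 66 at the near site. Reads that align equally well to more than 1 place were discarded by the authors, which can hide peaks in near-identical copies.

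Peaks in coding exons were found in keratins of several epithelia. *Krt5*, which encodes the type II keratin of basal keratinocytes, had a coding exon site with a pileup of 28 in WT and 31 in *Setdb1* KO. At *Krt75*, a keratin of the hair follicle companion layer, the values were 39 and 62. At *Krt82*, a hair cuticle keratin, they were 26 and 29. *Krt20*, an intestinal keratin, had 22 and 20. These 4 sites were in both lists, as were those in *Krt28*, an inner root sheath keratin, with 41 and 46, and in *Krt88*, with 82 and 114. A coding exon site in *Krt72* was in the *Setdb1* KO list only, with a pileup of 21, and one in *Krt77* in the WT list only, with 18. Summits in coding exons of any transcript made up 9 of the 90 keratin peaks of the *Setdb1* KO list (10.0%, Wilson 95% interval 5.35 to 17.9), against 2.77% of the whole list. The sets are not alike, since only 45248 of the 59698 listed peaks lay within 20 kb of a protein-coding gene. The coding exon sites were chosen after their values were seen, and no test was made.

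The members fell into 6 clusters with very different CTCF coverage. The chromosome 11 cluster runs from *Krt222* to *Krt42* (chr11:99232761-100269871) and holds 27 *Krt* and 23 *Krtap* genes. The chromosome 15 cluster runs from *Krt80* to *Krt18* (chr15:101347444-102032027) with 26 *Krt* genes, and the chromosome 16 cluster from *Krtap24-1* to *Krtap11-1* (chr16:88610705-89571183) with 24 *Krtap* genes. Within 20 kb of their members, the *Setdb1* KO list held 31, 33 and 9 peaks in these clusters and the WT list 24, 28 and 7. Per Mb this was 30.9 (exact Poisson 95% interval 21.0 to 43.9) on chromosome 11, 50.1 (34.5 to 70.3) on chromosome 15 and 13.6 (6.22 to 25.8) on chromosome 16 in *Setdb1* KO. The intervals of chromosomes 15 and 16 did not overlap. Around all protein-coding genes the density was 31.7 per Mb in *Setdb1* KO and 23.8 in WT. The small *Krtap* clusters of chromosomes 7, 10 and 1 held 10, 5 and 2 *Setdb1* KO peaks, or 69.6 (33.4 to 128), 54.5 (17.7 to 127) and 33.1 (4.01 to 120) per Mb.

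**Figure D1:**
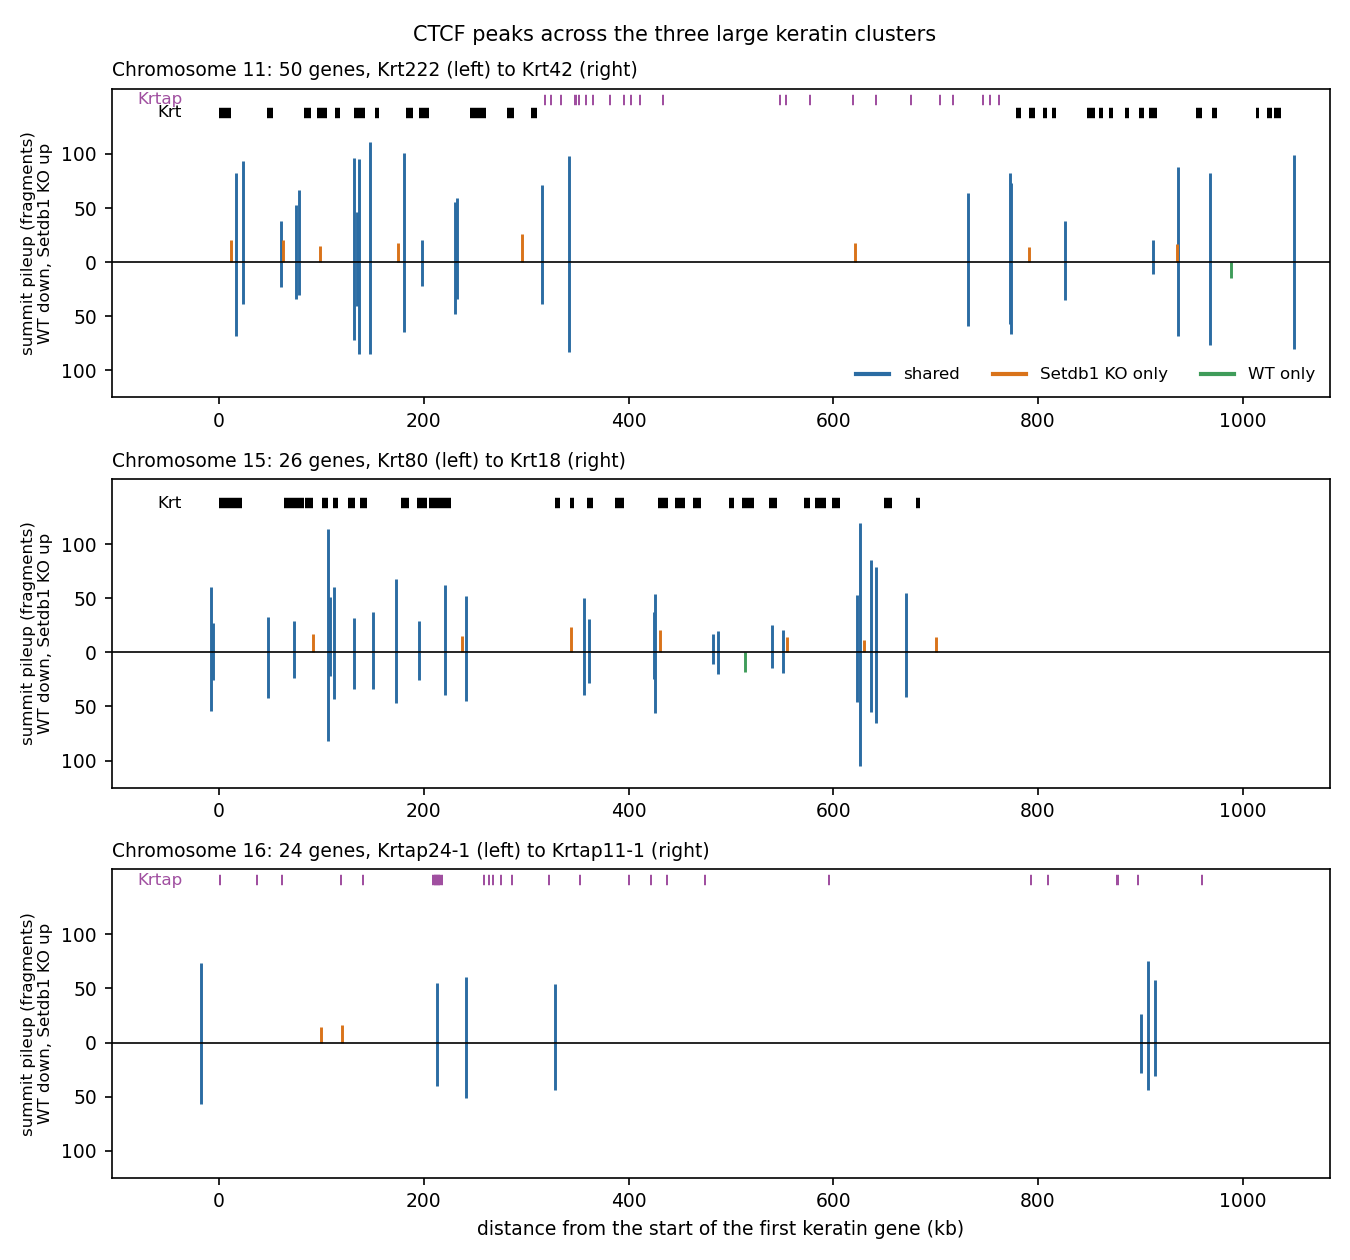
CTCF summit pileup in fragments, *Setdb1* KO upwards and WT downwards, against the distance in kb from the start of the first member gene of each large cluster, with *Krt* genes as black and *Krtap* genes as purple bars. The *Krtap* stretches of chromosomes 11 and 16 hold long intervals without a peak.

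*Krt* and *Krtap* genes differed in peak density when all clusters were pooled, but this did not hold in every cluster. Around the 53 *Krt* genes there were 46.6 *Setdb1* KO peaks per Mb (35.7 to 59.9), and around the 57 *Krtap* genes 23.4 (16.02 to 33.1). Among the *Krtap* clusters, the interval of chromosome 7 lay above that of chromosome 16, and the interval of chromosome 10 overlapped both. Of the *Krt* genes 45 (84.9%, Wilson 95% interval 72.9 to 92.1) had a *Setdb1* KO summit within 20 kb and of the *Krtap* genes 27 (47.4%, 35.0 to 60.1). For all members the count was 72 of 110 (65.5%), against 83.1% of all protein-coding genes. The members are short, with a median length of 6.59 kb for *Krt* and 0.892 kb for *Krtap* genes against 17.4 kb for all protein-coding genes, and share windows with their neighbours. Counting only summits inside the gene left 17 of 110 members, against 50.9% of protein-coding genes.

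The longest interval without a peak in either list was in the chromosome 16 cluster. It ran for 573 kb, from a shared site near *Krtap19-9b* to a shared site near *Krtap7-1*, over 10 *Krtap* genes. In the chromosome 11 cluster an interval of 280 kb held 13 *Krtap* genes, from *Krtap1-5* to *Krtap4-16*, and the next, of 110 kb, held 4 more. The only peak between these intervals was a KO-only site of pileup 18 near *Krtap4-16*, so that in the WT list the interval was 390 kb long with 17 *Krtap* genes. On chromosome 15 the longest was 68.2 kb, from *Krt4* to *Krt78*. Words of 31 bases that occur more than once on the same chromosome made up 16.6% of the long chromosome 16 interval and 18.6% of the 280 kb interval, against 10.4% and 8.61% of their chromosomes. How much of the absence of peaks goes with repeated sequence was not tested.

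Edges and interiors of the 3 large clusters differed little. An edge was taken from 20 kb outside to 50 kb inside each end, and the interior as the rest of the windows. In *Setdb1* KO the edges held 13 peaks, 32.7 per Mb (17.4 to 56.0), and the interiors 60 peaks, 31.2 per Mb (23.8 to 40.1). In WT the values were 32.7 and 23.9 (17.5 to 31.9) per Mb. The intervals overlapped widely in both lists. The flanks beyond the edges stood out more on chromosomes 11 and 15. The 200 kb to the left and right held 17 and 20 *Setdb1* KO peaks on chromosome 11, and 21 and 19 on chromosome 15. Beside the chromosome 16 cluster they held 2 and 5. The flanks of chromosome 11 had lower bounds of 49.5 and 61.1 per Mb, above the upper bound of 45.5 of its interior, whereas on chromosome 15 the intervals overlapped.

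**Figure D2:**
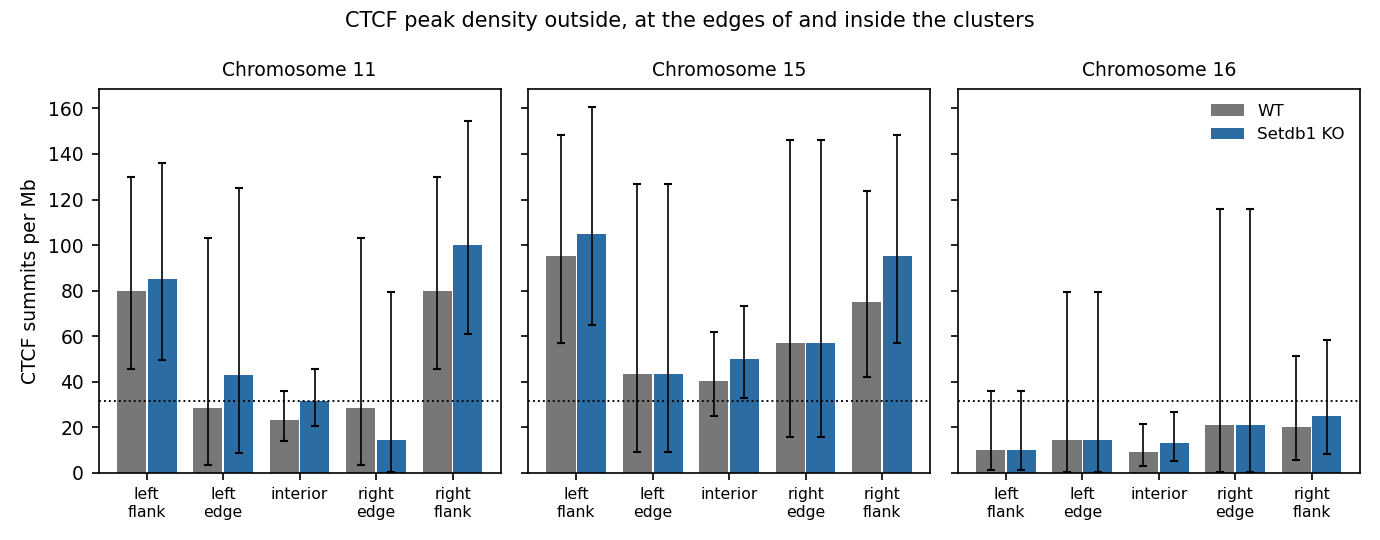
CTCF summits per Mb in WT and *Setdb1* KO in the flanks of 200 kb, the edges and the interior of the 3 large clusters, with exact Poisson 95% intervals and a dotted line at the *Setdb1* KO density around all protein-coding genes. Flanks exceed interiors on chromosomes 11 and 15, and every zone of chromosome 16 lies below the dotted line in *Setdb1* KO.

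The motifs at the edges were read for direction. Of 11 *Setdb1* KO edge peaks with a called motif, 8 pointed into the cluster and 3 outwards (72.7%, Wilson 95% interval 43.4 to 90.3). At the chromosome 15 cluster, both motifs of the left edge near *Krt80* and *Krt7* lay on the plus strand and the 3 of the right edge near *Krt8* and *Krt18* on the minus strand, so that all 5 pointed inwards. At the chromosome 11 cluster 2 of 3 on the left and 0 of 1 on the right did. In the interiors 21 motifs were on the plus and 17 on the minus strand. These counts are too small to show a preference, and loops were not analysed here.

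*Krt8* and *Krt18* lie next to each other at the right end of the chromosome 15 cluster and had 5 *Setdb1* KO sites within 20 kb of either gene. Their sequences are given where a motif was called, since sites 2 to 4 form the edge just described and site 1 lies just inside it.
*Krt8* site 1, chr15:101977159-101977192, plus strand: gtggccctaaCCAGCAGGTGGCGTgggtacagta
*Krt8* site 2, chr15:101984089-101984122, minus strand: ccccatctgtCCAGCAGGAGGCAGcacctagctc
*Krt8* site 3, chr15:101988909-101988942, minus strand: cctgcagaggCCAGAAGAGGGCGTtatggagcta
*Krt18* site 4, chr15:102018254-102018287, minus strand: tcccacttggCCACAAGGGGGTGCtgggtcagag

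Site 1, 19.6 kb from *Krt8*, was KO-only with a pileup of 11. Site 2, 12.6 kb from *Krt8*, had a pileup of 55 in WT and 85 in *Setdb1* KO, a ratio of 1.55 (exact Clopper-Pearson 95% interval 1.09 to 2.21), in a broad *Setdb1* KO peak of 1934 bp. Site 3, 7.78 kb from *Krt8* and in repeat-masked sequence, was a single *Setdb1* KO peak of 79 over 2 WT peaks of 65 and 50, so no ratio was formed. Site 4, between the genes and 9.90 kb from *Krt18*, had 41 in WT and 55 in *Setdb1* KO, a ratio of 1.34 (0.879 to 2.06). The last site, 15.9 kb beyond *Krt18*, was KO-only with a pileup of 14 and no called motif. The strong sites thus lay in both lists, and the KO-only sites were the weakest ones. The nearest *Setdb1* KO summit was 13.8 kb from the start of *Krt8* and 9.90 kb from that of *Krt18*, and neither gene had a summit inside it.

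The pair was not set apart from the other keratins by these measures. The *Setdb1* KO pileups at *Krt8* and *Krt18* ran from 11 to 85 with a median of 55, against 10 to 120 with a median of 52 at the 85 other keratin peaks. The fragments at their 2 paired sites gave a ratio of sums of 1.46 (1.12 to 1.91), against 1.304 (1.24 to 1.37) at 67 other sites. *Krt7* and *Krt19*, also keratins of simple epithelia, had 3 and 2 *Setdb1* KO sites within 20 kb. At *Krt7*, an intronic shared site had 24 in WT and 29 in *Setdb1* KO. At *Krt19*, an intronic shared site had 11 and 20.

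The lists were next compared for sites present in 1 condition only. A *Setdb1* KO peak sharing at least 1 bp with a WT peak counts as shared, otherwise as KO-only. Of the 90 keratin peaks 70 were shared and 20 KO-only (22.2%, Wilson 95% interval 14.9 to 31.8), against 28.8% KO-only in the whole list. The *Setdb1* KO list is the longer one, and with lists of equal length, taken by −log10 q, the share was 7.04% (5 of 71), against 11.7% of all peaks. By cluster 8 of 31 were KO-only on chromosome 11, 7 of 33 on chromosome 15, 2 of 9 on chromosome 16, 2 of 10 on chromosome 7, 1 of 5 on chromosome 10 and 0 of 2 on chromosome 1, which allows a share of up to 65.8%. Of the 75 WT peaks 4 were WT-only (5.33%, 2.09 to 12.9), against 3.22% of the WT list. The keratin genes therefore held no larger share of KO-only peaks than the list as a whole.

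The KO-only sites were weak, as they were in the whole list. Their pileups ran from 10 to 33 with a median of 16.5, against 17 to 120 with a median of 58.5 at the shared sites, so the highest stayed under 37, the median of all WT peaks. In the whole list the medians were 18 at KO-only and 55 at shared peaks, and 4.94% of KO-only peaks reached 37. The enrichment was low for 18 of the 20, which lay under 6.76-fold, the lower tercile of *Setdb1* KO peaks. So did 13878 of the 17198 KO-only peaks of the whole list for which sequence was read. Fold enrichment is the pileup over the local background as the peak caller gives it. Below that tercile, 62.1% of 29 keratin peaks and 69.8% of all peaks were KO-only. The site with the highest enrichment lay in an intron of *Tspear*, 12.1 kb from *Krtap10-10*, with 8.72-fold enrichment and a pileup of 33. It was followed by a site 6.92 kb from the hair keratin gene *Krt39* with 8.34-fold and 26. The next, at the promoter of *Krt222*, a truncated keratin gene, had 6.59-fold and 20. Further KO-only sites lay near *Krt24* (6.52-fold, pileup 20), in a coding exon of the inner root sheath gene *Krt72*, near the start of a shorter transcript and 8.23 kb from the start of the gene (6.09-fold, pileup 21), near *Krtap4-16* (5.96-fold) and at the promoter of *Krt87* (5.65-fold, pileup 17). The sites near *Krtap13-1*, *Krt75*, *Krt9* and *Krt12* and in an intron of *Krt26* had 4.87-fold to 5.16-fold enrichment. The 4 WT-only sites, near *Krtap5-3*, *Krtap10-10* and *Krt14* and in *Krt77*, had pileups of 14, 11, 15 and 18.

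At 69 sites 1 *Setdb1* KO peak met 1 WT peak, and the *Setdb1* KO pileup was as a rule the higher one. The median ratio of *Setdb1* KO to WT was 1.26 (quartiles 1.11 and 1.55), and the fragments of all 69 sites summed to 3155 in WT and 4128 in *Setdb1* KO, which gives 1.31 (1.25 to 1.37). Across the 41869 such sites of the genome the median was 1.36 and the ratio of sums 1.38 (1.37 to 1.38). Both values at the keratin genes were thus a little below those of all sites. The interval of the sums pools the fragments and leaves out the spread between sites, so a difference from all sites was not established. A ratio of at least 2 was found at 4 of the 69 sites (5.80%), against 9.39% of all sites, and a ratio below 1 at 7 (10.1%), against 7.41%. The cluster medians were 1.29 on chromosome 11, 1.16 on chromosome 15, 1.298 on chromosome 16 and 1.11 on chromosome 7. By sums, the chromosome 11 cluster had 1.34 (1.24 to 1.44), against 1.35 for its whole chromosome. The chromosome 15 cluster had 1.25 (1.15 to 1.36) against 1.34, and the chromosome 7 cluster 1.19 (1.03 to 1.38) against 1.34. Each interval included the value of the chromosome. Edges had a median of 1.27 and interiors of 1.23.

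**Figure D3:**
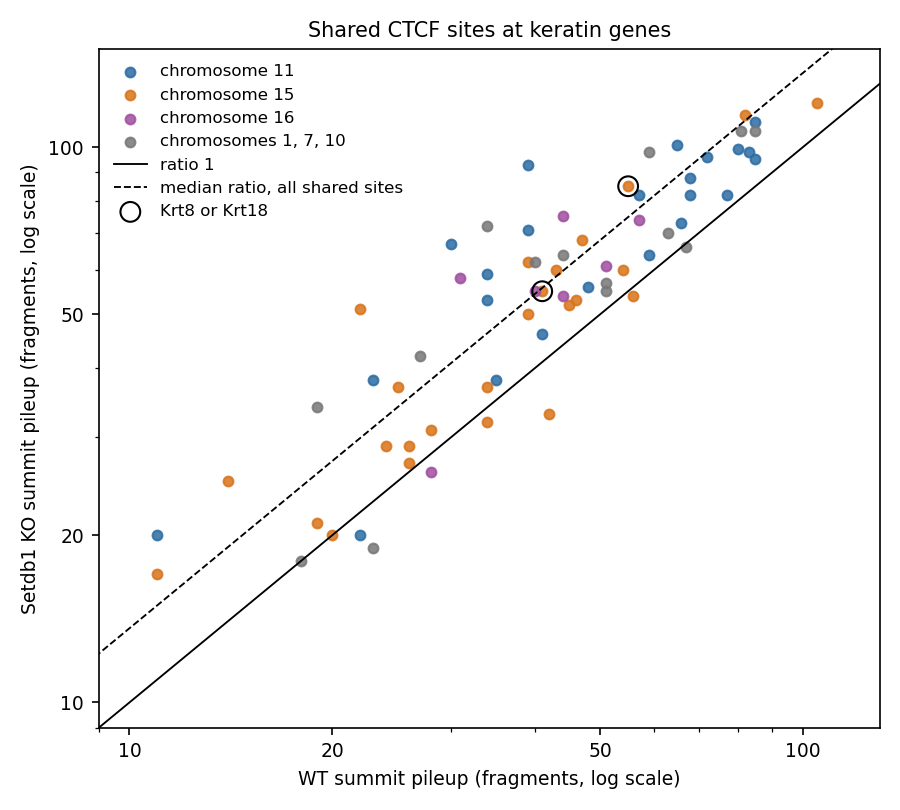
*Setdb1* KO against WT summit pileup in fragments, both on log scales, at 69 shared sites of the keratin genes, with a solid line at equal pileups and a dashed line at the median ratio of 1.36 of all shared sites. Points lie on both sides of the dashed line, with quartiles of the ratio at 1.11 and 1.55 and the highest at 2.38, and the paired *Krt8* and *Krt18* sites, ringed, lie among the others.

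The ratios of single sites lay on both sides of 1. The highest ratio, 2.38 (1.62 to 3.56), was at a site 12.3 kb from *Krt222*, with 39 in WT and 93 in *Setdb1* KO. It was followed by a site 2.23 kb from *Krt88*, a type II keratin gene, with 22 and 51 (2.32), a site near the inner root sheath gene *Krt25* with 30 and 67 (2.23), an intronic *Tspear* site 3.77 kb from *Krtap12-1* with 34 and 72 (2.12), and a site 16.7 kb from *Krtap7-1* with 31 and 58 (1.87). The intervals of all 5 stayed above 1, but these sites were picked as the highest of the 69 ratios. Over all shared sites the ratio of sums was 1.38, and the interval of the site with ratio 1.87 (1.19 to 2.99) included it. At the *Tspear* site the local background rose as well, by a ratio of 2.19, against 0.737 to 1.13 at the others. Its fold enrichment was 10.9 in WT and 12.5 in *Setdb1* KO. The lowest ratio, 0.786 (0.483 to 1.27), was at a site 16.03 kb from *Krt7* with 42 and 33. Next came a site 12.3 kb from *Krtap5-1* with 23 and 19 (0.826), the *Krt20* site (0.909), a site near *Krtap7-1* with 28 and 26 (0.929) and the *Krt86* site (0.941). The intervals of these 5 all included 1, so a lower level in *Setdb1* KO was not detectable at this depth. A stronger site in coding exon 5 of *Krt88* had 82 and 114 (1.39, 1.04 to 1.87).

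The strongest sites of each cluster were present in both lists. On chromosome 15 the highest *Setdb1* KO pileup was 120 at a site 19.6 kb from *Krt78*, with 105 in WT, followed by 114 in *Krt88* and 85 at *Krt8*. On chromosome 11 it was 111 at a site 4.86 kb from the inner root sheath gene *Krt28*, with 85 in WT, followed by 101 near the corneal keratin gene *Krt12* (65 in WT) and 99 near *Krt42* (80 in WT). On chromosome 16 the highest were 75 near *Krtap7-1* (44 in WT), 74 near *Krtap24-1* (57 in WT) and 61 near *Krtap19-1* (51 in WT). On chromosome 7 they were 70 near *Krtap5-2* (63 in WT), 66 near *Krtap5-1* (67 in WT) and 62 near *Krtap5-4* (40 in WT). On chromosome 10, 2 intronic *Tspear* sites near *Krtap12-1* and *Krtap10-4* both had 107, with 81 and 85 in WT. The highest pileups of the chromosome 16 and chromosome 7 clusters were therefore below the highest of chromosomes 10, 11 and 15. *Krtap11-1*, the last gene of the chromosome 16 cluster, had no summit within 20 kb, and its nearest *Setdb1* KO summit was 41.0 kb from its start.

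A CTCF motif was called at 57 of the 90 keratin peaks (63.3%, Wilson 95% interval 53.0 to 72.6), against 57.7% of the whole *Setdb1* KO list. The threshold was set so that 1.00% of control windows pass, so that share is not a comparison. A motif was called at 50 of 70 shared peaks (71.4%) and 7 of 20 KO-only peaks (35.0%, 18.1 to 56.7), close to the 66.1% and 36.9% of the whole list. Below 6.76-fold enrichment, where 18 of the 20 KO-only peaks lay, it was called at 34.5% of 29 keratin peaks and 32.1% of all peaks. The matrix was built from shared peaks only. Whether the lower share goes with the KO-only class or with weak peaks was not tested. Among the KO-only sites, 3 of the 7 motifs had the same core, CCAGAAGAGGGCAT, and all 3 lay in repeat-masked sequence. They are set beside a shared site with that core.
*Krt222* KO-only site, chr11:99244692-99244725, minus strand: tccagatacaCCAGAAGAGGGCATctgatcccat
*Krt26* KO-only site, chr11:99331445-99331478, plus strand: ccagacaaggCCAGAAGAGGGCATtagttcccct
*Krtap13-1* KO-only site, chr16:88731106-88731139, plus strand: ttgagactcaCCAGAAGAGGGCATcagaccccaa
*Krt24* shared site, chr11:99293008-99293041, minus strand: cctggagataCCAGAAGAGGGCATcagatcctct

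This core was called at 3042 peaks of the whole *Setdb1* KO list, of which 91.2% lay in repeat-masked sequence and 41.4% were KO-only. Among all 34428 peaks with a called motif, 35.4% were repeat-masked and 18.4% KO-only. Of the 17600 repeat-masked peaks of the list, with or without a motif, 7117 were KO-only. A core that differs from this core at the last base was 89.7% repeat-masked, and 27.7% of its 1667 peaks were KO-only. Whether the KO-only share goes with the core or with repeat-masked sequence was not tested. At the keratin genes the core printed above was found at 5 peaks, all repeat-masked, 3 of them KO-only with pileups of 20, 15 and 16. The shared ones, near *Krt24* and *Krtap12-1*, had 38 and 18 in *Setdb1* KO. SINE B2 elements, short mobile repeats, are known to carry CTCF motifs, but the masked sequence gives no repeat name, so no element was assigned here. With all clusters pooled, repeat-masked summits were fewer at the keratin genes than in the list, 14 of 90 (15.6%, Wilson 95% interval 9.50 to 24.4) against 29.5%. By class this was 9 of 70 shared and 5 of 20 KO-only peaks, against 24.7% and 41.4%. The chromosome 11 cluster held 9 of the 14 and the chromosome 15 cluster 2.

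The members were finally grouped by where their proteins act. All 6 keratins of simple epithelia, all 3 of the basal epidermis and all 5 of the suprabasal and palmoplantar epidermis had a *Setdb1* KO summit within 20 kb. So had 12 of 15 keratins of the hair shaft, 6 of 7 of the inner root sheath, 3 of 4 of mucosa and cornea and 2 of 4 of stress and wound keratins (*Krt6a*, *Krt6b*, *Krt16* and *Krt17*). In WT the counts were 11 for the hair shaft, 5 for the inner root sheath, 2 for mucosa and cornea and 1 for stress keratins, and unchanged at 6, 3 and 5 for the first 3 groups. With so few genes the intervals of the groups overlapped. The intermediate filament genes elsewhere in the genome, such as *Vim* and *Des*, all had one (15 of 15), as did 10 of 10 genes of desmosomes and plakins and 9 of 10 epidermal transcription factors. The epidermal differentiation complex, another tissue-restricted cluster of short genes, had 30 of 45 (66.7%, 52.1 to 78.6). The olfactory receptor genes had 31.4% of 1135, and the placental prolactin family 2 of 25. The KO-only share of peaks was 44.4% (27.6 to 62.7) at the differentiation complex and 38.2% (33.0 to 43.5) at the olfactory receptor genes, and the latter interval lay above that of the keratin genes.

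**Figure D4:**
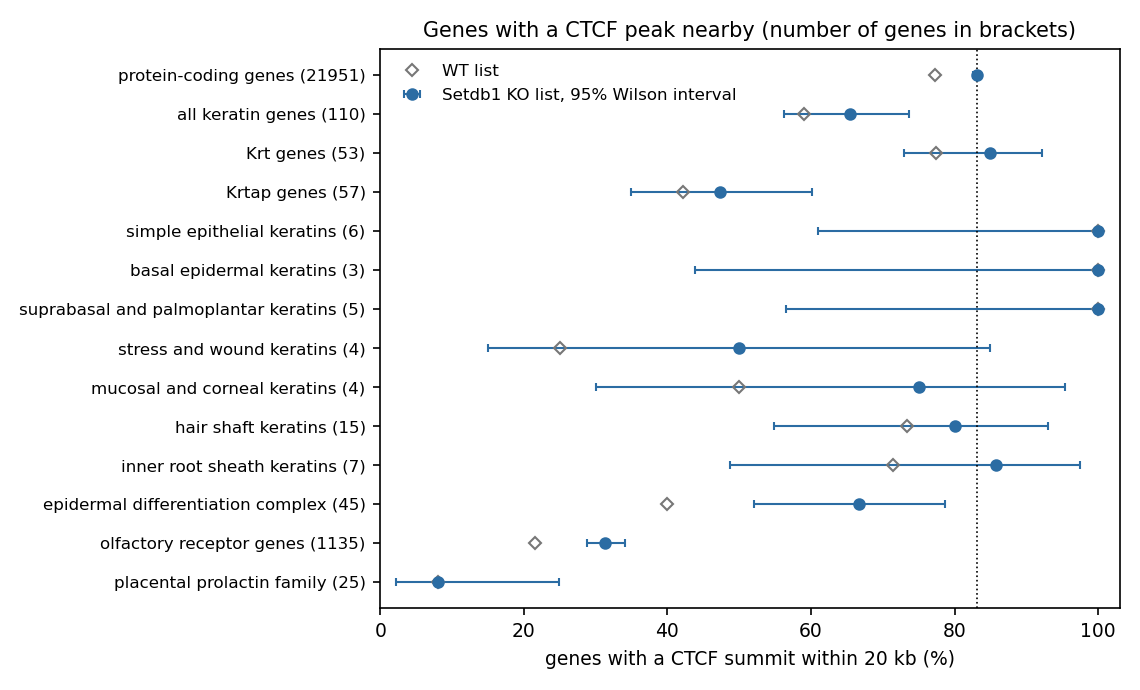
Percent of genes with a CTCF summit within 20 kb, by group, with the number of genes in brackets, the Wilson 95% interval for the *Setdb1* KO list, open diamonds for the WT list and a dotted line at 83.1% for all protein-coding genes. The *Krtap* genes lie at 47.4%, between the olfactory receptor genes and the *Krt* genes.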

How the data were processed

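CTCF ChIP-seq of crosslinked, sonicated chromatin was analysed from 2 deposited peak lists, 1 library per condition. The labels list replicate 2 CTCF libraries for both conditions. These and the other samples of the series were not analysed here. Alignment was by the authors with Bowtie 1.2 to mm10 (GRCm38), keeping unique alignments, followed by Picard for duplicates and MACS2 2.1.0 for peaks. In the deposited lists the fold enrichment is a ratio of pileup over local background, significance is recorded as −log10 p and −log10 q, and the score is a whole-number form of −log10 q.

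Pileups were solved from the deposited fold enrichment and −log10 p, within a tolerance of 0.001, which succeeded for 100% of the WT list and 99.99% of the *Setdb1* KO list. Library depth was derived from the lowest background as 27377372 tags for WT and 27556484 for *Setdb1* KO. Gene places came from GENCODE vM21 and sequences from the RefSeq GRCm38 genome. The CTCF matrix was built from 1000 shared peaks outside the keratin genes. Its threshold was the 99th percentile of control windows shifted by 1000 bp, and motifs were searched up to 50 bp from a summit. A summit was repeat-masked where lower-case letters made up most of the bases within 50 bp. Member genes up to 500 kb apart formed a cluster. Intervals are Wilson for shares, exact Clopper-Pearson for pileup ratios and exact Poisson for densities. The intervals of pileup ratios treat fragments as independent. With 1 library per condition analysed, all intervals cover counting error only. The scripts ran on Python 3.11.15 with scipy 1.17.1, numpy 2.4.6, pandas 2.3.3 and matplotlib 3.10.9, and pileups, overlaps and motif calls were tested on simulated data.

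Named were *Krt7*, *Krt8*, *Krt18* and *Krt19*, the end genes of clusters with at least 5 genes, the 3 sites per cluster with the highest *Setdb1* KO pileup, up to 12 KO-only and WT-only sites each by fold enrichment, and the 5 highest and 5 lowest ratios. The members and gene lists were chosen with earlier results of these data known. The paired and coding exon sites and the recurring cores were chosen after their values were seen. A sequence comparison between member genes is not reported here. Other overlaps, thresholds, windows and cluster settings were tried as alternatives.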

Additional observations from a re-analysis of the deposited data

How the results depend on the processing

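Over 9 results and 39 alternatives, 31 values stayed within the 95% interval of the reported value, or within 1.5 times of a reported count, and 8 did not. With lists of equal length, taken by −log10 q, the KO-only share fell to 7.04% (5 of 71), against 11.7% of all peaks. With summits inside the genes only, 17 peaks and 17 member genes were left, *Krt8* and *Krt18* had 0 *Setdb1* KO sites and the motif share was 52.9%. With a window of 50 kb *Krt8* and *Krt18* had 10 sites. The motif share was 86.7% at the 95th percentile of control windows, where the threshold is 5.61 bits, and 31.1% within 100 bp of the summit, where it is 16.6 bits, against 75.2% and 40.5% of all peaks, so keratin peaks lay above the list under one setting and below it under the other. No paired analysis was possible because only the replicate 1 list of each condition was analysed here, and for the same reason no replicate could be left out. The replicate 2 libraries were not analysed here. Depth limits weak sites, since the lowest listed pileup was 9 in WT and 8 in *Setdb1* KO, and peaks in repeated sequence can be missed because only uniquely aligned reads were kept.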
